A study of Mus musculus with 2 samples.

Results

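The 348 regions described here are the DNase-hypersensitive peaks that ranked among the 500 strongest in both of 2 spleen libraries. The main list of each library was the deposited one that covered fewer bases, with 48286 peaks in replicate 1 and 28837 in replicate 2. Peaks were ranked by the deposited signal value, and a peak of the top 500 of replicate 1 was kept when it shared at least 1 base with a peak of the top 500 of replicate 2. The 348 regions are 0.721% of the replicate 1 list, and overlap 350 peaks of replicate 2. The members were chosen by signal, so it is given as a description and supports nothing below; position, sequence and footprints did not enter the choice.

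The study measured DNase I hypersensitivity in spleen tissue of male B6CASTF1/J mice, the F1 cross of C57BL/6J and CAST/EiJ, at 14 days of age. All material belonged to 1 group, and no treatment or genotype contrast was made. Spleens of 3 males went into replicate 1 and of 1 male into replicate 2, under a single donor entry, so the libraries may not be independent and their spread may be partly technical. Reads of both parental alleles were aligned to mm10, a C57BL/6J reference. Sequencing depth is unknown, because the peak lists hold no read counts.

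DNase-seq maps bases that the nuclease can cut because nucleosomes are displaced, and active promoters and enhancers are the usual sites. Many promoters of widely expressed genes lie in CpG islands, stretches rich in CpG that bind SP and KLF proteins at GC boxes, the heterotrimer NFY at CCAAT boxes, NRF1 at palindromic GC-rich sites, ETS proteins at GGAA cores and CREB or ATF proteins at cyclic AMP response elements. A bound protein shields its bases from cutting, which leaves a footprint inside the peak. In the spleen of a young mouse, red-cell precursors, lymphocytes, myeloid cells and stroma all contribute nuclei.

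The sequences of 10 start-site regions and 3 regions between genes follow as examples. The start-site ones were picked for holding a motif, so they do not show how common it is. The start-site examples were the strongest single-copy regions with a match to the motif in their exon-free stretch. There were 2 for each of the GC box, NFY, NRF1, ETS and CRE motifs, taken in that order and printed on the strand of the gene. A region already shown was not taken again, and start-site stretches had at least 100 bases. All examples were limited to at most 300 bases and to chromosomes other than 18. Capitals mark matches on either strand to GGGCGGGG (GC box), CCAAT followed by C or G and then by A or G (NFY), GCGCANGCG (NRF1), CCGGAAG (ETS), TGACGTCA (CRE) and the word CCACGCCC, which was added after the word counts below were seen. The stretches are RefSeq GRCm38.p6 at chr13:17694901-17695100 for Mplkip and Sugct on the plus strand, chr10:117792721-117792940 for Nup107 on the minus strand, chr3:40949541-40949820 for Larp1b on the plus strand, chr8:47675159-47675320 for Ing2 on the minus strand and chr10:81378521-81378800 for Fzr1 on the minus strand. The others are chr11:69921387-69921520 for Eif5a on the minus strand, chr1:180850961-180851120 for Sde2 on the plus strand, chr7:141902488-141902620 for Tollip on the minus strand, chr7:73537781-73538012 for Chd2 on the minus strand and chr16:22009261-22009483 for Senp2 on the plus strand.
Mplkip and Sugct: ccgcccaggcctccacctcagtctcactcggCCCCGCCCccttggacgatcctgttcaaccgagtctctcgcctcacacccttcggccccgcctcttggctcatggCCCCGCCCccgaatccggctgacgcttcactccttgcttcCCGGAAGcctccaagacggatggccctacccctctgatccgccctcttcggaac
Nup107: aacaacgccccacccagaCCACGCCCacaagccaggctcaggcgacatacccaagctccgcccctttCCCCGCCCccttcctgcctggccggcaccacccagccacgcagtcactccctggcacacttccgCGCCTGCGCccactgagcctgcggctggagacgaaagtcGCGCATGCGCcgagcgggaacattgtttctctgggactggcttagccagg
Larp1b: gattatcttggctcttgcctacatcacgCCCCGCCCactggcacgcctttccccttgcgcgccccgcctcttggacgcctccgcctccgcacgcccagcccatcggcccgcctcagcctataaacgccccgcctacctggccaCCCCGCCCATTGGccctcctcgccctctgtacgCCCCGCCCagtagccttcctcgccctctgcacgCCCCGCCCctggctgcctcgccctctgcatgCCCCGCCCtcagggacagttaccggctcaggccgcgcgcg
Ing2: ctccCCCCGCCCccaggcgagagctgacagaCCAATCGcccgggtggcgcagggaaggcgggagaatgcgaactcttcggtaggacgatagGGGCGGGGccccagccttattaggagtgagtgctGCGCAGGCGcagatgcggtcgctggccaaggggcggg
Fzr1: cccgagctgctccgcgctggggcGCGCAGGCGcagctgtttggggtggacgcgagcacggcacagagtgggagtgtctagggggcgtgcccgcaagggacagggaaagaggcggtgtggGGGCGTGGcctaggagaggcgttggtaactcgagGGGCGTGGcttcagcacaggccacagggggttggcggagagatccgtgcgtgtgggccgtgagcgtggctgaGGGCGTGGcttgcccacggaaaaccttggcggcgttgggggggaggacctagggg
Eif5a: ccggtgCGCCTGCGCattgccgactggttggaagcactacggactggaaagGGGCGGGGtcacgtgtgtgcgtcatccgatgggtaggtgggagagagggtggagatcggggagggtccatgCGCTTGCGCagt
Sde2: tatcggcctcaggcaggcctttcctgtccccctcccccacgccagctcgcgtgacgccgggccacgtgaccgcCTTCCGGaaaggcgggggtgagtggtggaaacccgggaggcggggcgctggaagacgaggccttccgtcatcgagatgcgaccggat
Tollip: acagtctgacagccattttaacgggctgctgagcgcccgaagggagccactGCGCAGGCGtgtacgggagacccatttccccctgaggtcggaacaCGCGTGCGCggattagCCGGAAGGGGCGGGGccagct
Chd2: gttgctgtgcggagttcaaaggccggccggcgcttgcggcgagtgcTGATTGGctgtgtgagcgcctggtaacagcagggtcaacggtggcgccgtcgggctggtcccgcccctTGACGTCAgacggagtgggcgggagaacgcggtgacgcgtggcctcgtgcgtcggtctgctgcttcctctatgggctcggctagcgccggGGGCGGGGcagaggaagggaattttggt
Senp2: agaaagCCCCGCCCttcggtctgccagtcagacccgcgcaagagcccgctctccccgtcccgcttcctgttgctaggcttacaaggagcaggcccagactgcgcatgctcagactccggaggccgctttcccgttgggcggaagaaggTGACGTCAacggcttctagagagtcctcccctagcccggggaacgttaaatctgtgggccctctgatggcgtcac

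Larp1b, which codes for a La-related RNA-binding protein, held 5 GC boxes and 1 NFY match in that stretch. Nup107, a nuclear pore subunit, held 3 overlapping or neighbouring NRF1 matches on both strands. Fzr1, the activator of the anaphase-promoting complex, held no GC box but 3 copies of CCACGCCC, and its NRF1 match lay outside the central 200 bases. In Tollip, an adaptor of Toll-like receptor signalling, the ETS and GC box matches adjoin.

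The between-gene examples were the 3 strongest of that class with no further copy in the reference and under 50% of their 32-base words found again, printed on the plus strand with the same capitals, and are shown because 2 of the 3 hold the motifs of the start-site regions and 1 holds none of them. They lie at chr14:65343681-65343960 near Zfp395, a zinc finger gene, at chr5:25529601-25529860 near the noncoding 1700096K18Rik and at chrX:143482981-143483140 near Pak3, which codes for a kinase. The region near Pak3 was partly repeat-marked, as given below.
near Zfp395: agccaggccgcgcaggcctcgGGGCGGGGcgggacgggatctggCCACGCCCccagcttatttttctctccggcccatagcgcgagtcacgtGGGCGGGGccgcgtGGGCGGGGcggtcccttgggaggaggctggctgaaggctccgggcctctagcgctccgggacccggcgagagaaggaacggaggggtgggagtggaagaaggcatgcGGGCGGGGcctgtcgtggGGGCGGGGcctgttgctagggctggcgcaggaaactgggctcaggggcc
near 1700096K18Rik: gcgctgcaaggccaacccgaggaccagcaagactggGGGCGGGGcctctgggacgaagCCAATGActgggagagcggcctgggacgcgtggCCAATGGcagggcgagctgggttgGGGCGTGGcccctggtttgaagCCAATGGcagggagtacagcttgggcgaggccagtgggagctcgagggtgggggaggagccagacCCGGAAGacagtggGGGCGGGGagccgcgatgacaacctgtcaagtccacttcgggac
near Pak3: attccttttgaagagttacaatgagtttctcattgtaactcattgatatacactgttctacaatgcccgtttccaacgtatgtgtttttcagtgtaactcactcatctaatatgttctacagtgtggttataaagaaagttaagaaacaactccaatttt

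The signal of the 348 regions ran from 23.1 to 68.9 in replicate 1, with a median of 27.1, and from 13.2 to 66.7 in replicate 2, with a median of 15.7. The medians over all peaks of the lists were 1.49 and 1.79. These regions held 6.02% of the summed signal of replicate 1 and 6.57% of that of replicate 2. The ratio of replicate 1 to replicate 2 had quartiles of 1.59, 1.72 and 1.85 and was above 1 in 345 of the 348, against a median of 1.49 over the 25633 replicate 1 peaks with a partner. The scaling between the libraries was not given in the sources used here, so the ratio is read only between regions. Across the 348 regions the log2 signals of both libraries had a Pearson r of 0.578 and a Spearman rho of 0.559, a description over regions that share 2 libraries and a lower limit of signal.

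**Figure D1:**
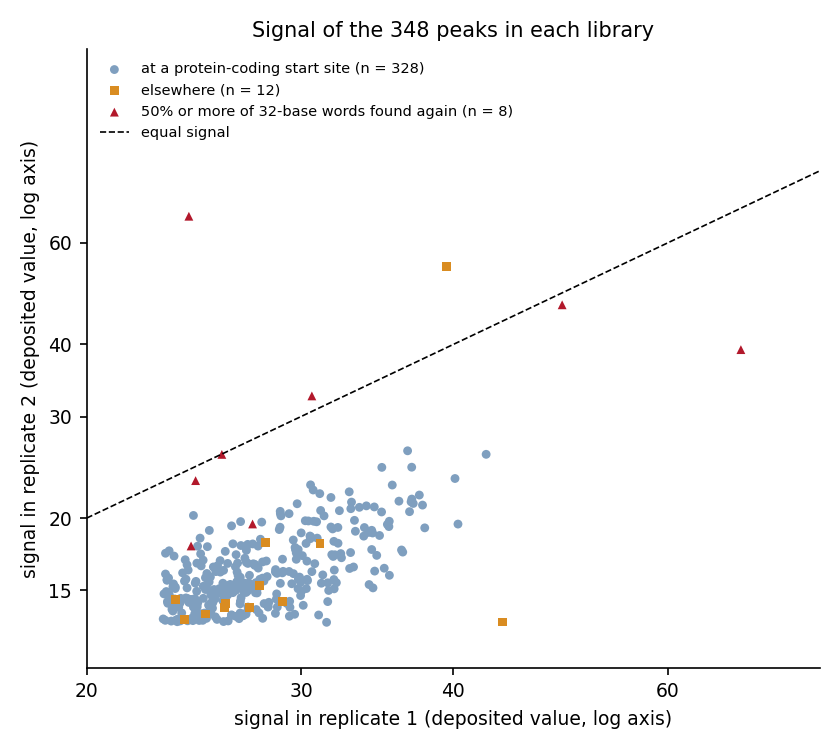
Signal in replicate 1 (horizontal) and replicate 2 (vertical), both on log axes, with 1 point per region; squares are the other regions away from protein-coding start sites and triangles are the 8 regions with at least 50% of their words found again. Most points lie below the line of equal signal, while several triangles lie on or above it.

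The strongest region by mean rank lay at chr17:39846781-39846900, 58 bases from the start of the noncoding Gm42418, with a signal of 49.2 in replicate 1 and 46.9 in replicate 2. The second covered the start of Dynlt1b, a dynein light chain gene, at 68.9 and 39.2. The third lay in the untranslated part of Cers5, a ceramide synthase gene, at 39.5 and 54.7. All of these stood above the next regions in at least 1 library. The region near Gm42418 and the one at Dynlt1b had further copies in the reference, described below. Copies missing from the reference could not be counted.
Fzr1 followed at 42.6 and 25.8, the shared promoter of Mplkip and Sugct at 40.1 and 23.4, and Nup107 at 36.7 and 26.2. Larp1b had 37.0 and 24.5, the shared promoter of 9130023H24Rik and Armc5 had 37.5 and 21.9, Eif5a, a translation factor, had 37.0 and 21.6, and Gxylt1, a xylosyltransferase of Notch, had 35.6 and 22.8. From Fzr1 on, replicate 1 was higher than replicate 2 in each of these 7 regions.

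At the lower edge, the members just inside the limit had 23.1 at Carnmt1 and at Adam9 with Tm2d2 and 23.2 at Fbxo38 with Spink10 in replicate 1. The replicate 1 peaks just outside, at Tmem120b, Bcas3 and Leng8, each had 23.1. In replicate 2 the lowest members, at Aamp with Pnkd, near Pak3 and at Parp6, had 13.2, as did the 3 peaks just outside at Mtmr3, Ythdf1 and BC005624. Values just inside and just outside the limit were alike, and the top 500 of replicate 1 ended in a tie that was broken by position.

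Promoters made up almost the whole set. A protein-coding start site lay within 1000 bases of 330 of the 348 regions (94.8%, 95% exact Clopper-Pearson interval 91.9 to 96.9%, counting error only), against 42.8% of all replicate 1 peaks and 57.2% of all replicate 2 peaks. Of the other 18, 7 lay in an exon, 1 in an intron and 10 between genes. Counting start sites of any annotated gene raised the number to 337 (96.8%). The regions touched the start sites of 376 of 21951 protein-coding genes, 1.71% of them.

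The centres lay just upstream of the start. The median centre of the 330 start-site regions was 76 bases upstream, with quartiles 128 and 33 bases upstream, and 90% of the centres were upstream. Over the 20646 start-site peaks of replicate 1 the median was 19 bases upstream, and 60.5% were upstream. The start site itself lay inside 72.4% of the start-site regions and inside 55.0% of the start-site peaks of replicate 1. Start sites on both strands lay within reach of 49 of the 330 regions (14.8%), against 10% of the start-site peaks of replicate 1.

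**Figure D2:**
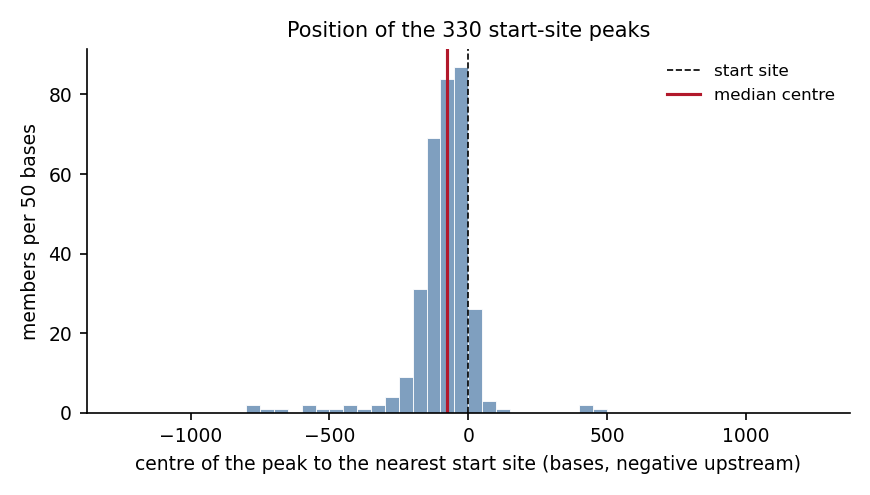
Distance from the centre of each of the 330 start-site regions to the nearest protein-coding start site in bases, in bins of 50 bases, with negative values upstream. The dashed line marks the start site and the solid line the median of -76 bases, and most regions lie between the start site and 200 bases before it.

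The regions were rich in CpG. In the central 200 bases the median share of G and C was 67%, and the observed over expected CpG ratio was 0.863. The corresponding medians were 55.5% and 0.405 over all replicate 1 peaks, 60% and 0.622 over all replicate 2 peaks, and 64% and 0.763 over the start-site peaks of replicate 1. The regions were 60 to 540 bases wide, with a median of 240 bases against 199 and 189 over the lists of replicates 1 and 2. The widest covered the starts of Vkorc1l1 (540 bases), a vitamin K epoxide reductase gene, Rab8a (500 bases), a GTPase of membrane traffic, and Dnpep (480 bases), an aminopeptidase gene.

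Recognition sequences of general promoter factors were frequent in the central 200 bases. The GC box was found in 184 regions (52.9%), NFY in 118 (33.9%) and NRF1 in 87 (25%). In 200-base windows of all replicate 1 peaks the shares were 12.9%, 10.4% and 4.40%, and in those of start-site peaks 24.3%, 15.3% and 9.05%. ETS was found in 45 regions (12.9%) against 11.5% of start-site peaks, and CRE in 15 (4.31%) against 2.31%. At least 1 of these 5 motifs was present in 294 regions (84.5%), and 54 had none.

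Motifs of insulator and several blood-cell factors were less frequent than over all peaks, and most of these motifs were also less frequent at start-site peaks in general. CTCF, the insulator factor, matched 1.44% of the regions, 8.07% of all replicate 1 peaks and 2.18% of its start-site peaks. The GATA letters AGATAA matched 1.15%, 8.39% and 4.14%. The RUNX letters TGTGGTT were in 2.59%, 5.37% and 2.69%, and the PU.1 letters GAGGAAGT in 1.44%, 4.25% and 2.62%. The EBF motif (TCCC and GGGA 2 bases apart) was in 1.44%, 1.22% and 0.969%, and the CACCC box CCACACCC in 4.89%, 3.77% and 3.07%, so these were not lower in the regions. No region matched REST or the joint TAL1 and GATA motif (CTG, 8 free bases and AGATAA, which contains the GATA motif). A match is a description of letters and says nothing of binding.

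Some of these motifs, such as the GC box and NRF1, are rich in G and C. The shares were therefore also read within start-site peaks of 60 to 75% G and C. There the GC box was in 56.9% of 288 regions against 30.8% of 11495 replicate 1 peaks, NFY was in 32.6% against 16.2%, and NRF1 in 26% against 12%. ETS was in 13.9% against 14.3%, so its share was near that of the other promoters of like composition. The same held for CTCF, in 1.39% against 1.07%, and for RUNX, in 1.74% against 1.63%, each from 5 regions or fewer. GATA was in 1.04% against 1.66%, PU.1 in 1.04% against 1.84%, and the CACCC box in 5.90% against 2.95%. The part of base composition in the rest was not tested further.

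**Figure D3:**
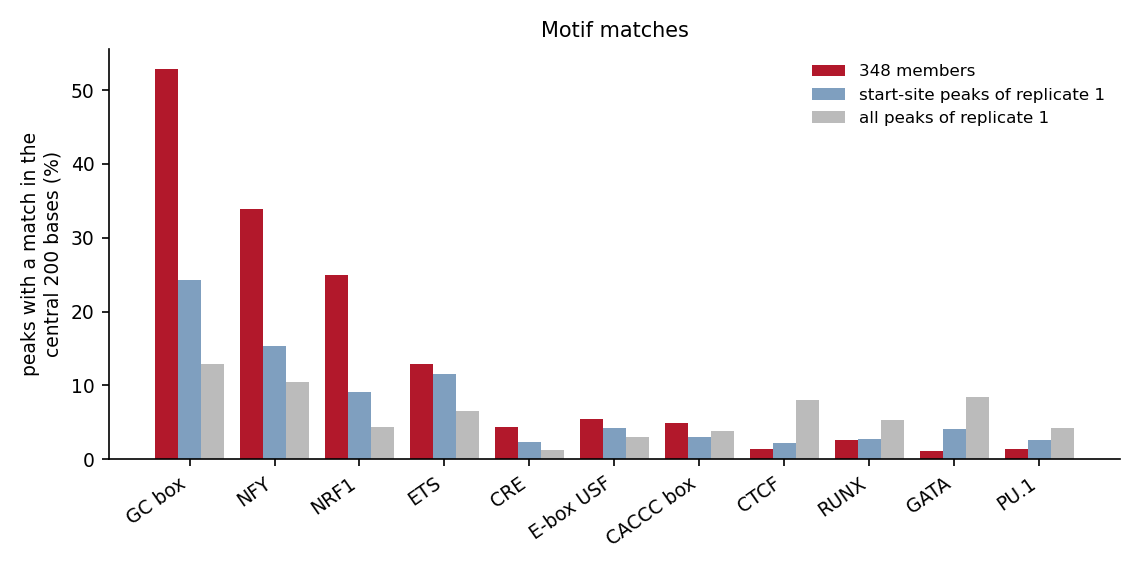
Share of peaks with a motif match in the central 200 bases for 11 motifs. The GC box, NFY and NRF1 bars of the 348 regions stand above those of start-site peaks and of all peaks of replicate 1, and the CTCF and GATA bars stand below them.

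Among all 8-base words, counted on either strand, GCCCCGCC was in 53.0% of the start-site regions and in 20.4% of the other start-site peaks of replicate 1. The word CCACGCCC, a sequence of the KLF type that differs from the GC box, was in 27% against 6.96%. Several motifs occurred together. The GC box and NFY shared 55 regions (15.8%), the GC box and NRF1 42 (12.1%), and NRF1 and NFY 22 (6.32%). The strongest NRF1 region was at Dynlt1b, the strongest NFY region at Larp1b and the strongest ETS region at Mplkip and Sugct. The strongest CRE region was at Ube2h, a ubiquitin-conjugating enzyme gene, at 30.5 and 22.8. The strongest YY1 region was at E4f1, a transcription factor gene, at 31.9 and 15.6, and the strongest GATA region at Atg4d, an autophagy protease gene, at 28.8 and 15.4. The strongest CTCF region lay in the pseudogene 2610005L07Rik, at 27.4 and 19.5, and the strongest ZNF143-type region at Zbtb7a, at 26.7 and 15.7.

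The matches lay close to the start site. In start-site regions the median GC box was 60 bases upstream, NFY 65 bases upstream, NRF1 63 bases upstream and CRE 28 bases upstream. In the start-site peaks of replicate 1 those medians were 39, 56, 23 and 27 bases upstream. The median centres were 76 bases upstream in the regions and 19 in those peaks, so the positions are not a separate result.

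All 348 regions held at least 1 footprint in each library, whereas 10.5% of all replicate 1 peaks and 11.6% of all replicate 2 peaks held none in their own library. Footprints of replicate 1 covered 48.4% of the bases of the regions and those of replicate 2 covered 45.3%, against 21.1% and 22.6% of the bases of the full lists. The median was 5 footprints in each library. Summed over both libraries, the most were found at Add3, a spectrin-associated adducin gene, and at Vkorc1l1, with 12 in replicate 1 and 11 in replicate 2, and at Hdgfl2, with 11 in each. Eif5 had 8 in replicate 1 and 12 in replicate 2, the highest number of that library. Footprint cover moved with signal, at 46.4% of bases in ranks 1 to 500 of replicate 1 and 13.8% in ranks 20001 to 48286, and the part of signal in these shares was not tested.

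The motifs differed in how often their letters fell in a footprint. In start-site regions 96.8% of GC box matches lay in a replicate 1 footprint and 94.0% in a replicate 2 footprint. For NRF1 the shares were 93.3% and 90.8%, and all 13 CRE matches lay in a footprint of each library. NFY matches did so in 50% and 49.3% of cases and ETS matches in 66.7% and 52.1%, near or above the share of all bases covered. In the start-site peaks of replicate 1, where footprints covered 22.7% of bases in replicate 1, the GC box share was 75.4%, NRF1 85.3%, CRE 85.8%, ETS 44.5% and NFY 37.7%.

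**Figure D4:**
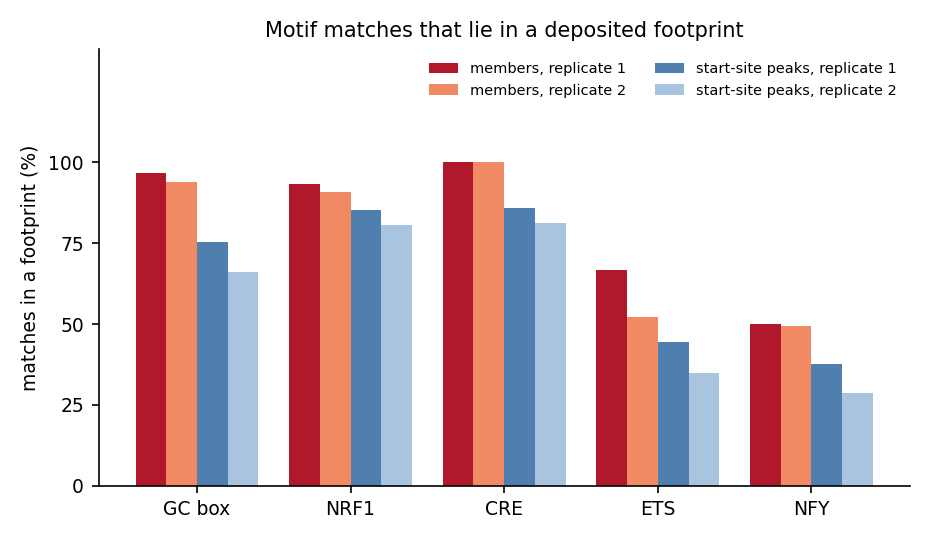
Share of motif matches in start-site regions (red and orange) and in start-site peaks of replicate 1 (blue) that lie in a footprint of replicate 1 or of replicate 2. GC box, NRF1 and CRE matches of the regions are above 90% in both libraries and NFY matches are near 50%.

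Every region was called throughout its length at a false discovery rate of 0.001 or below in both libraries. That rate comes from the same reads as the signal that chose the regions, so it is a description only. So were 87.1% of all replicate 1 peaks and 86.3% of all replicate 2 peaks in their own library. Within the region and 1000 bases on each side, a median of 1178 bases in replicate 1 and 926 in replicate 2 were at or under that limit. Over all peaks of the lists the medians were 376 and 445 bases.

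Genes of translation were among those at these start sites. Translation factors had 6 of 69 listed genes at a member (8.70%), splicing factors 3 of 52 (5.77%) and cytosolic ribosomal proteins 4 of 86 (4.65%), where the background over all protein-coding genes was 1.71%. Zinc finger genes had 7 of 438 (1.60%), near that background, mitochondrial ribosomal proteins 2 of 78 and the respiratory chain 1 of 106. No proteasome gene (of 50) and no replication-dependent histone gene (of 67) had one. These lists were drawn up by gene symbol, so genes of like function under other names were missed. They were made with results of the data known, and a few genes decide each count.

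The translation factors were Eif1, which selects the start codon, at 36.1 and 21.4, Eif5a at 37.0 and 21.6, Eif4a1, the cap-complex helicase, at 30.3 and 15.1, and Eif5 at 26.1 and 14.7. Eif2b4 shared a promoter with Snx17 at 26.3 and 13.6, and Eif4ebp2, an inhibitor of cap-dependent translation, had 23.9 and 14.5. Both libraries placed Eif5a and Eif1 first among these. The ribosomal protein genes were Rplp0 at 30.8 and 16.7, Rpl7a, beside Med22, at 25.2 and 19.0, Rps12 at 25.1 and 15.2 and Rps3a1 at 23.3 and 15.6. The mitochondrial ones were Mrpl17 at 30.3 and 15.7 and Mrpl49, with Fau, at 24.4 and 13.4, and Ndufaf8, an assembly factor of complex I, had 25.9 and 14.4 with Tepsin.

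The RNA-processing genes were Hnrnpc at 31.8 and 17.3, Hnrnpul1 at 26.9 and 13.5 and Hnrnpa2b1, opposite Cbx3, at 24.1 and 14.5. The zinc finger genes were Zbtb7a, Zfp143, Zfp41, Zfp654, Zfp687, Zfp809 and Zfpm1, with 24.6 to 29.5 in replicate 1 and 13.9 to 17.7 in replicate 2. Zfpm1, which codes for the GATA1 partner FOG1, had a pair of members 240 bases apart, at 28.6 and 27 in replicate 1. Other pairs within 10 kb lay at Dcaf6 and Mpc2, 300 bases apart, and at Ell, an elongation factor gene, 460 bases apart. These 6 were the only members within 10 kb of another.

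None of the 88 cell-type marker genes had a member at its start site; with 1.71% of all protein-coding genes having one, a count of 0 of 88 is near the background. A main-list peak lay at 54 of them in replicate 1 and at 40 in replicate 2. The share of all protein-coding genes with such a peak was not counted, so these counts stand without a background and no cell type is read from them. Peaks lay at 16 and 15 of 18 erythroid genes, at 11 and 9 of 12 B cell genes and at 5 and 4 of 10 T cell genes in replicates 1 and 2. Hepatocyte genes had them at 1 and 0 of 4. Granulocyte and monocyte genes had peaks at 2 and 0 of 8, and natural killer genes at 2 and 0 of 6. Macrophage genes had them at 4 and 2 of 7, and megakaryocyte genes at 3 and 2 of 6. For stroma and endothelium the counts were 4 and 3 of 8, and for acinar genes 2 and 1 of 3. Markers of muscle and of neurons each had a peak at 2 of 3 genes, among them Mylpf, a myosin light chain gene, with 10.4 and 4.64. The erythroid genes Hba-a1 and Hba-a2, the T cell gene Cd3e and the macrophage gene Csf1r had no peak at their start in either list. The best was Tfrc, the transferrin receptor, placed here in the erythroid list, with 20.8 (rank 801) in replicate 1 and 11 (rank 1030) in replicate 2. Epor, the erythropoietin receptor, had 12.7 and 6.26, Nfe2 had 12.4 and 6.51, Cd79a of B cells had 5.41 and 1.83, and Klf1 had 4.42 and 1.97. In tissue, fewer cells of a type and less cutting per cell cannot be told apart.

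Some genes with a known part in red cells were also present, chosen here after their values were seen. They come from no fixed list, so their number has no background and is not a result. Epb41, of the membrane skeleton, had 35.3 and 19.5 and Stom, a membrane protein, 32.2 and 19.3. Bnip3l, which clears mitochondria, had 27.4 and 16.7, Mafk, a partner of NF-E2, 25.1 and 17.8, and Bpgm, which makes bisphosphoglycerate, 23.5 and 13.9. Widely expressed genes chosen in the same way included Actb at 26.6 and 16.7, Stat3 at 29.3 and 20.4, Npm1 of the nucleolus at 23.9 and 13.3, and Nfya, a subunit of NFY, with Oard1 at 34.3 and 18.8.

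The 18 regions outside protein-coding start sites included 11 with at least 1 of the 5 motifs, 10 of them outside repeated sequence. The region near Zfp395, 14429 bases from its start, had 31.1 and 18.1, 72.5% G and C and a GC box. The region near 1700096K18Rik lay 153 bases from that noncoding start and had 29.0 and 14.3. Regions with a GC box or NRF1 match also lay near Ccne1 (27.2 and 14.0), 889 bases from the noncoding Malat1 (25 and 13.6), near Cpeb4 (24.1 and 13.4), near B330016D10Rik (26 and 14.2), near Rpl30-ps6 (23.7 and 14.5) and near A430078I02Rik (26 and 14). The only intron member, within Gm20388, had 27.7 and 15.3 and matches of ETS, NFY and the GC box. The region on Rn7s2, a signal recognition particle RNA gene, had 28 and 18.1 with a CRE match.

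Of the other 8 of these 18, 6 had at least 50% of their 32-base words found again, 1 lay in Cers5 and 1 near Pak3. The region near Pak3 was also partly repeated, but its share of words found again was under that limit. A further copy of at least 95% identity over 90% of the length existed in the reference for 4 regions (1.15%): Dynlt1b with 3, the region near Gm42418 with 1, the one in 2610005L07Rik with 4 and the one at chr3:5860361-5860530 with 11. The share was 1.49% and 1.73% in every 20th peak of replicates 1 and 2, so the regions were near it; in the top 500 of replicate 2 alone, with replicate 1 left out, it was 2.40%. Counting 32-base words, 8 regions (2.30%) had at least 50% of their words found again elsewhere, which added those at Gm10719, Lars2, Gm15564 and chr6:49236421-49236620. In every 20th peak of the lists that share was 1.45% and 1.25%. Of these 8, 6 lay outside protein-coding start sites. Where a read fits several places, its signal depends on how the authors placed it, a step not given in the sources used here.

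Repeated sequence moved with the ratio of the libraries. The 8 regions had ratios of 0.364 to 1.76, with a median of 1.05, and the other 340 had a median of 1.73. The lowest ratio was at Gm10719, in satellite sequence that was 98.1% repeat-marked, with 24.3 in replicate 1 and 66.7 in replicate 2, where it was the strongest peak. Lars2, which codes for the mitochondrial leucyl-tRNA synthetase, had 30.6 and 32.6. The regions at chr6:49236421-49236620 and Gm15564 had 25.8 and 25.8 and 24.6 and 23.2. Of the 6 regions with a ratio under 1.1, 5 were among these 8. The remaining one was the region in Cers5, with 39.5 and 54.7, none of its words found again, no CpG and 6.54% of its bases in footprints. The part of repeated sequence in the ratios was not tested.

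The highest ratio belonged to the region near Pak3, with 43.9 in replicate 1 and 13.2 in replicate 2 (3.33), 35451 bases from the Pak3 start. It had 34% G and C, 31.9% of repeat-marked bases and 25.6% of its words found again, and was the only member on the X chromosome. That chromosome held 0.287% of the members and 2.54% of replicate 1 peaks. Aamp with Pnkd (31.5 and 13.2), Rab11b (31 and 13.6), Cnnm2 (34.4 and 15.1) and Cdkn2d (35.5 and 15.9) came next, with ratios of 2.23 to 2.39 and an NFY match each.

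The features changed gradually with rank and did not stop at rank 500. In replicate 1 the share at start sites was 95.2% in ranks 1 to 500, 95.4% in ranks 501 to 1000, 96.0% in ranks 1001 to 2000 and 28.1% in ranks 20001 to 48286. The GC box was in 48.0%, 45.2%, 40.5% and 6.07% of those bins, while GATA was at 1.40%, 1.20%, 1.30% and 9.69%. Replicate 2 ran the same way, with start sites at 92.6% in its first 500 and 38.9% after rank 20000.

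**Figure D5:**
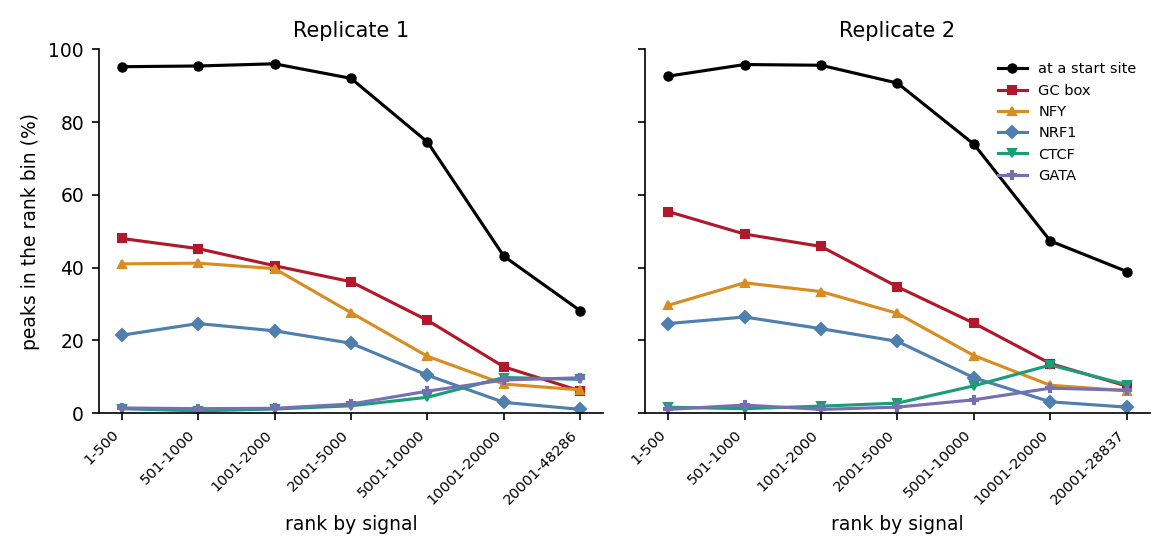
Share of peaks at a protein-coding start site and with each motif in bins of signal rank, by library. Start sites stay above 90% to rank 5000 in both libraries, and CTCF and GATA matches are higher in the lower ranks.

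The peaks in the top 500 of 1 library but not of the other differed in their motifs. All of them had a main-list peak in the other library. Its median rank was 744 in replicate 2 for those of replicate 1, and 806 in replicate 1 for those of replicate 2. The 152 of replicate 1 alone held NFY in 57.2% and the GC box in 36.8%, with a median of 64% G and C. The 150 of replicate 2 alone held NFY in 24.0% and the GC box in 60%, with a median of 68%. The 348 shared regions lay between them, at 33.9%, 52.9% and 67%. The 2 libraries also differ in the number of males in the material and in peak number, and these cannot be told apart.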

How the data were processed

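DNase-seq of 14-day B6CASTF1/J male spleen was deposited as 2 libraries. Peaks, footprints and false discovery rates were made per library from mm10 alignments, not pooled, per the deposited file descriptions. Names and versions of aligner and peak caller were not given in the sources used here. Per library, the authors deposited 1 signal value per peak, with no stated normalization, so depth is unknown and the values carry no interval. The deposited false discovery rate of the cut rate, a p-value type unit, lists bases under 0.05. The deposited footprint score is constant, so only positions were used.

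Positions were set against GENCODE M21 and GRCm38.p6. Motifs were exact letter matches on both strands of the central 200 bases. Further copies were found with blastn 2.17.0, tables were made with pandas 2.3.3 and numpy 2.4.6, and intervals with scipy 1.17.1. Overlap, distance, motif and coverage steps were tested on simulated data. No test across groups was possible with 1 group, so counts and medians stand beside those of all peaks. Named genes were the strongest by mean rank, by position, by motif and by ratio, those of the lists, the widest and those with most footprints; a few others are marked as chosen later. Members, lists and motifs were chosen with earlier results of these data known. Alternatives changed the number of strongest peaks, the overlap, the peak list, the window and the library.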

Additional observations from a re-analysis of the deposited data

How the results depend on the processing

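The peak lists hold no read counts, so what depth limits was not measured. Shares rest on exact letters and on 1 annotation release, and the intervals cover counting error only. All alternatives on call depth, spacing and words found again, and some on signal and genes, were chosen after seeing the data. No paired analysis was possible because the libraries form 1 group. The number of regions was 165 with the top 250 and 762 with the top 1000 of each library, and 500 with either library alone; genes at start sites then numbered 185 and 849, and 526 to 557 with 1 library. Of the single-motif values, the GC box ranged from 48.0 to 58.8%, NFY from 29.6 to 41.0% and NRF1 from 21.4 to 27.9%. The share at start sites was 92.6 to 95.2% in single libraries.

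With the top 250, repeat sequence was 0%, motifs per region were 1.56, G and C 67.5% and the ratio 1.71. With the top 1000, footprint bases were 46.6%, motifs 1.56, width 220 bases and the ratio 1.76. Any repeat base was found in 31.3% of the regions. Replicate 2 footprints covered 45.3%. Overlap of 50% of both peaks gave 1.52 motifs, and whole peaks gave 1.74. Leaving out members with words found again gave a ratio of 1.73. With 1 library left out, footprint bases were 46.4 to 49.1%, motifs 1.51 to 1.52, G and C 66.5 to 67.5%, width 220 to 240 bases, repeat sequence 0.200 to 0.600%, several copies 0.800 to 2.40%, bases at the call limit 1145 to 1192, and regions close to another 1.20 to 4.40%.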
